A study of Mus musculus with 18 samples.

Results

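*Ccr7*, *Ccl17*, *Ccl22*, *Cx3cl1*, *Fscn1*, *Il4i1* and *Cacnb3* are 7 genes of mature, migrating dendritic cells, among them a chemokine receptor and 3 chemokines. They were taken by gene symbol, ignoring case, from the 20298 genes of the deposited table, and all 7 were found once. RNA was measured by single-end RNA sequencing in 18 libraries from C57BL/6 mice, as 3 libraries in each of 6 groups. WT mice were compared with STAT5 tetramer-deficient mice (DKI), a double knockin with mutations in *Stat5a* and *Stat5b* that leave STAT5 able to form dimers but not tetramers. Ly6C+ CCR2+ monocytes of each genotype were enriched with an isolation kit and were either untreated (day 0) or cultured with GM-CSF (20 ng/mL, for 3 or 6 days), the cytokine that turns monocytes into monocyte-derived cells (MDCs). The monocytes came from bone marrow according to the series' design, whereas the tissue label reads liver. All cells of a DKI mouse carry the mutations, the cells were not sorted after culture, and the ages of the mice are not given in the sources used here.

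A maturing dendritic cell switches on *Ccr7*, whose product is the receptor for CCL19 and CCL21 and guides the cell along lymphatic vessels to the lymph node. The same program includes chemokines that draw T cells to the dendritic cell and proteins that reshape its cytoskeleton. STAT5 is activated by GM-CSF, binds DNA as dimers, and can pair dimers into tetramers on neighbouring sites. In bulk RNA, fewer cells of a type and less RNA per cell cannot be told apart.

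Levels are given as RPKM, the reads on a gene per kilobase of its exons, scaled to the counted reads of the library. The read total of each library was recovered from the low values and lay between 29.5 M and 43.2 M (median 36.4 M). At these depths a gene with 1 kb of exons and 3 reads has between 0.0695 and 0.102 RPKM, which covers counting error only. The 5 hepatocyte markers summed to at most 0.0470 RPKM in any library, which does not check the tissue label, since monocytes were enriched. The 6 markers of classical monocytes were all present on day 0, where they summed to between 10355 and 16767 RPKM in WT and between 10943 and 14289 RPKM in DKI monocytes. In the same libraries 6 neutrophil markers summed to between 903 and 1220 RPKM in WT and between 860 and 1176 RPKM in DKI. The 4 B cell markers summed to at most 13.9 RPKM there. *Stat5a* mRNA does not check the genotype, since the knockin changes the protein and not the gene's presence. It lay between 12.1 and 17.1 RPKM in the 6 day 0 libraries, and was lower in DKI than in WT MDCs on day 3 (log2 fold change −1.67, SE 0.28, limma adjusted p = 0.0224) and on day 6 (−1.68, SE 0.32, adjusted p = 0.0357, 0.0516 with the replicate number as a block).

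The 3 chemokine genes are neighbours, so the sequences before their starts are shown here. *Ccl22* (chromosome 8, 94745684 to 94751388), *Cx3cl1* (94772180 to 94782427) and *Ccl17* (94809380 to 94812038) lie on the plus strand within 66.4 kb in the mouse genome build GRCm38.p6. Each line gives the 250 bases upstream of a transcript start from RefSeq. The window of *Ccl17* precedes a start inside the span that RefSeq lists for the gene. Capitals mark a match to TTCNNNGAA, the letters of the STAT consensus site.
Ccl22 chr8:94745434-94745683 plus strand: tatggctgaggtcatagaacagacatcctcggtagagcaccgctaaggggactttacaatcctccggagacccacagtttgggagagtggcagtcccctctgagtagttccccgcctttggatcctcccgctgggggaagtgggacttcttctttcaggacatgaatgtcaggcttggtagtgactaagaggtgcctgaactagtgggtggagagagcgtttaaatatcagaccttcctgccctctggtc
Cx3cl1 chr8:94771930-94772179 plus strand: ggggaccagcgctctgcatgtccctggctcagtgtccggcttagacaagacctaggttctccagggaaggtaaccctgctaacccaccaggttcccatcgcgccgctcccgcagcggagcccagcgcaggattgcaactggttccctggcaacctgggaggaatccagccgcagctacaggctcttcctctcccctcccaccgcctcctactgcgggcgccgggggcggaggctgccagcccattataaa
Ccl17 chr8:94810203-94810452 plus strand: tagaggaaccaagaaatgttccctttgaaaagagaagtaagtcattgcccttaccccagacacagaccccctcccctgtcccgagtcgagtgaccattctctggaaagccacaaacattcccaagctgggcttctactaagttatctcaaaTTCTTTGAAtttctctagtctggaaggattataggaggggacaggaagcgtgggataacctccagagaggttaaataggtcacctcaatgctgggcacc

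The letters TTCNNNGAA were found in the *Ccl17* window as TTCTTTGAA, from base −99 to base −91 before the start, and in neither of the other windows shown. The motif is its own reverse complement, and 7.02% of the 32851 promoter windows of the same length held it. The kappa-B-like letters GGNNTTTCC (4.93% of windows) and the AP-1 letters TGANTCA (6.75%), read on both strands, were in none of the windows found for *Ccl17*, *Ccl22*, *Cx3cl1*, *Fscn1*, *Il4i1* and *Cacnb3*. These matches describe letters in 250 bases and no binding was measured. According to the paper, STAT5 tetramers can bind suitably spaced sites of lower affinity outside the consensus, which this search does not cover. The other 4 genes lie apart, with *Fscn1* on chromosome 5 (142960355 to 142973189), *Il4i1* on chromosome 7 (44836288 to 44840809), *Cacnb3* on chromosome 15 (98628436 to 98644536) and *Ccr7* on the minus strand of chromosome 11 (99144199 to 99155077). *Ccr7* ends 1704 kb before the start of *Stat5a* on the same chromosome.

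In untreated monocytes all 7 genes were low in both genotypes. *Ccr7* had the most even level, with WT libraries of 0.554, 0.347 and 0.358 RPKM beside DKI libraries of 0.469, 0.282 and 0.309 RPKM. The mean levels of the 7 genes lay between 0.0374 RPKM for *Cacnb3* and 0.420 RPKM for *Ccr7* in WT, and between 0.0247 RPKM for *Il4i1* and 0.659 RPKM for *Ccl17* in DKI monocytes. *Ccl17* rested on 17 reads over the 3 WT libraries and on 30 reads in DKI replicate 3, with 0 reads in the other DKI libraries. *Cacnb3* was the only member whose genotypes did not overlap, at 13 reads over the 3 WT libraries (0.0374 ± 0.0191 RPKM, SD, n = 3) and 38 reads over the 3 DKI libraries (0.107 ± 0.0197 RPKM, SD, n = 3). Of the 16064 genes above 0 in a day 0 library, 1.43% were likewise higher in DKI with no overlap. No member reached the mean of 2 RPKM that the test required on day 0, so none entered that fit. Without the filter all 7 were fitted and 0 were called in limma, with *Cacnb3* alone at an unadjusted p under 0.05 (0.00441).

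**Figure D1:**
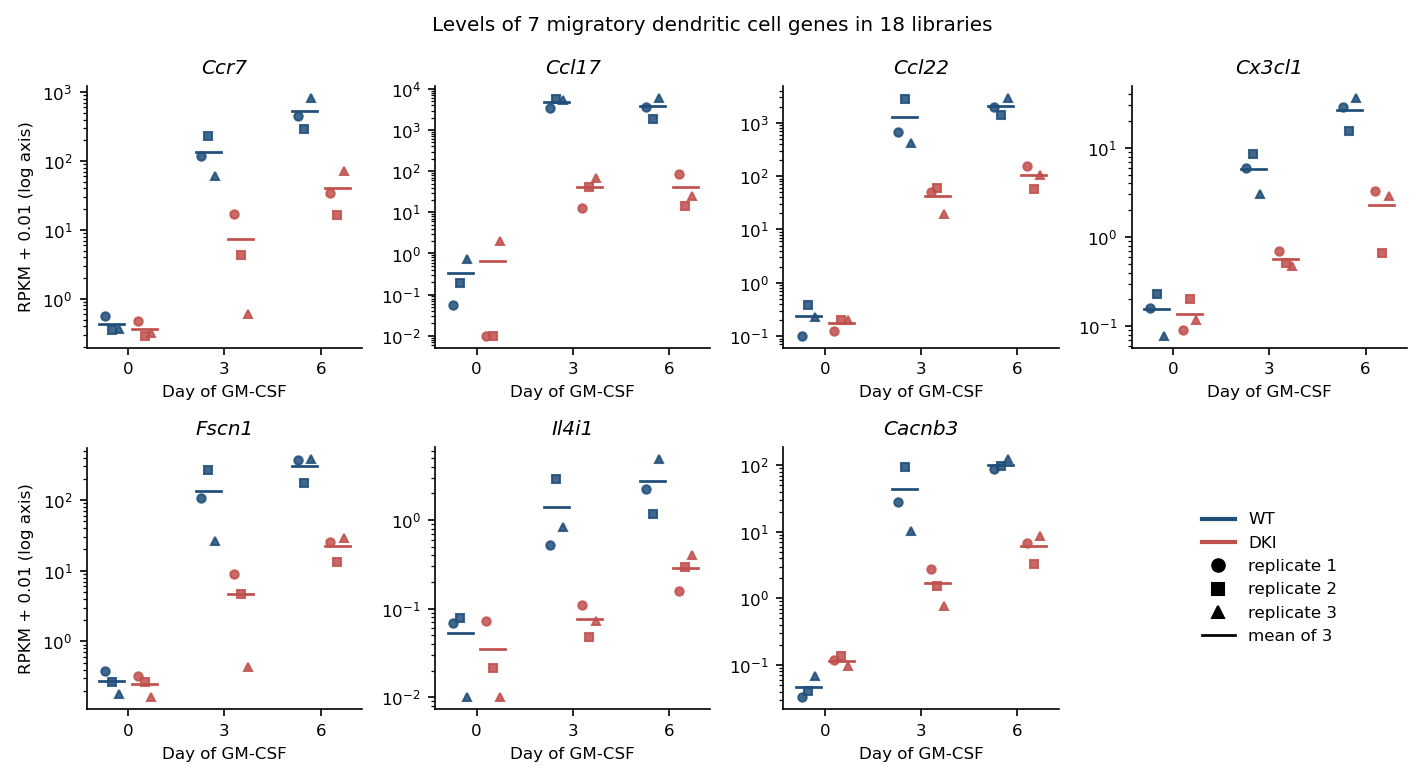
RPKM + 0.01 on a log axis for each of the 7 genes against the day of GM-CSF culture, with WT in blue, DKI in red, a marker shape for each replicate number and a line at the mean of 3 libraries. On days 3 and 6 every WT point lies above every DKI point of the same gene, as for 22.9% and 26.6% of all genes fitted, and on day 0 the genotypes overlap for all genes but *Cacnb3*, where 1.43% of 16064 genes lie higher in DKI without overlap.

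After 3 days of GM-CSF, chemokine genes of WT cells had gone from near 0 to among the highest levels in the transcriptome. *Ccl17*, which codes for a ligand of CCR4, a chemokine receptor of T cells, reached 3473, 5758 and 5499.85 RPKM in the WT libraries on day 3. It ranked between 3 and 11 among all genes in those libraries. *Ccl22*, which codes for the other CCR4 ligand, reached 657, 2781 and 412 RPKM (ranks between 11 and 126). *Cx3cl1*, also called fractalkine, codes for a chemokine that is anchored in the membrane and can be shed, and it was far lower, at 5.91, 8.46 and 3.02 RPKM. All 3 chemokine genes were thus expressed in each WT library on day 3, with *Ccl17* above *Ccl22* and *Ccl22* above *Cx3cl1* in each.

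The receptor, the actin bundling gene and the channel subunit rose with them. *Ccr7* reached 118, 229 and 60.8 RPKM in WT MDCs on day 3. *Fscn1*, whose product fascin bundles actin filaments into the dendrites of mature dendritic cells, reached 106.1, 271 and 26.7 RPKM. *Cacnb3*, which codes for the beta 3 auxiliary subunit of voltage-gated calcium channels, reached 28.4, 94.7 and 10.3 RPKM. Replicate 2 was the highest and replicate 3 the lowest of the WT libraries for each of these 3 genes. *Il4i1*, which codes for a secreted oxidase of aromatic amino acids, stayed low at 0.512, 2.90 and 0.820 RPKM, on 37, 223 and 54 reads.

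Day 3 was compared with day 0 in WT by limma on log2(RPKM + 1), two-sided, with Benjamini-Hochberg adjustment over all genes fitted, and a gene was called at an adjusted p under 0.05 with a fold change above 1.5. Of the 9938 genes fitted, 20.3% were called higher and 22.8% lower on day 3. The 6 members that passed the filter, each of them through day 3 alone, were all called higher. The log2 fold changes were 11.86 for *Ccl17* (SE 0.27, adjusted p = 2.61e-06), 9.54 for *Ccl22* (SE 0.64, adjusted p = 0.000114), 6.39 for *Ccr7* (SE 0.43, adjusted p = 0.000118), 6.20 for *Fscn1* (SE 0.74, adjusted p = 0.000917), 4.93 for *Cacnb3* (SE 0.69, adjusted p = 0.00167) and 2.48 for *Cx3cl1* (SE 0.32, adjusted p = 0.00135). Adding 1 RPKM shrinks these changes, and with 0.1 RPKM in its place *Cacnb3* changed by 7.80 and *Cx3cl1* by 4.51. *Il4i1* was below the filter, at a mean of 1.41 RPKM on day 3.

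In DKI MDCs of day 3 the same genes were far lower. *Ccl17* reached no more than 12.5, 42.2 and 68.0 RPKM in the 3 libraries. *Ccl22* was at 50.9, 58.7 and 19.2 RPKM, so that its mean in DKI MDCs (42.9 ± 20.9 RPKM, SD, n = 3) was close to that of *Ccl17* (40.9 ± 27.7 RPKM, SD, n = 3), whereas in WT MDCs the mean of *Ccl17* was the higher of the pair (4910.3 ± 1251 against 1283 ± 1303 RPKM, SD, n = 3). *Cx3cl1* was at 0.687, 0.501 and 0.470 RPKM, on 85, 62 and 46 reads. These 3 chemokine genes were therefore detected in every DKI library, below every WT library of that day.

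The other members were low in DKI MDCs of day 3 as well. *Ccr7* was at 16.9, 4.36 and 0.601 RPKM and *Fscn1* at 9.001, 4.70 and 0.421 RPKM. *Cacnb3* was at 2.76, 1.53 and 0.751 RPKM, and *Il4i1* at 0.0994, 0.0372 and 0.0627 RPKM on 8, 3 and 4 reads. In DKI replicate 3 the 0.601 RPKM of *Ccr7* and 0.421 RPKM of *Fscn1* stood beside day 0 means of 0.353 and 0.241 RPKM in DKI, while *Ccl17* was at its highest of the 3 DKI libraries. Replicate 1 of days 3 and 6 carries 2015 in its library name and all other libraries carry 2016, so the values of the first pair stand for the earlier year.

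In DKI, 13.1% of 9922 genes were called higher and 21.1% lower on day 3 than on day 0. With median centring 1743 genes were called higher and 1622 lower in place of 1297 and 2097. Of the 4 members that could be fitted, each of them through day 3 alone, *Ccl22* (log2 fold change 5.09, SE 0.41, adjusted p = 0.000873) and *Ccl17* (4.57, SE 0.69, adjusted p = 0.00521) were called higher. *Ccr7* (1.99, SE 0.80, adjusted p = 0.0952) and *Fscn1* (1.80, SE 0.68, adjusted p = 0.0794) did not pass. When a library was left out, the change ran from 1.12 to 2.86 for *Ccr7* and from 1.20 to 2.61 for *Fscn1*. In the other alternatives it reached 3.48 and 3.59. *Cx3cl1*, *Il4i1* and *Cacnb3* were below the filter. Without DKI replicate 3 of day 3, 5 members could be fitted and all 5 were called higher, so that this library decided the count. On the recovered reads with voom, *Ccl22* alone was called.

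The genotypes were then compared on day 3. The mean level in DKI MDCs was between 0.832% (*Ccl17*) and 9.54% (*Cx3cl1*) of the WT mean, with a median of 3.78% over the 7 members. All 7 had every DKI library below every WT library, as did 22.9% of the 9740 genes fitted. The gap between the lowest WT and the highest DKI library was 51.1-fold for *Ccl17*, 7.03-fold for *Ccl22* and 5.16-fold for *Il4i1*, and it was smallest for *Fscn1* at 2.96-fold. Within same-numbered pairs, *Ccl17* in DKI was at 0.360%, 0.732% and 1.24% of WT and *Ccr7* at 14.4%, 1.90% and 0.990%. Both years of library names thus showed the decrease, and for *Ccr7* the pair of 2015 showed the smallest one.

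Across the 9740 genes, 4.21% were called lower and 3.21% higher in DKI on day 3. Of the 6 members fitted, 5 were called lower in limma, of which *Cx3cl1* and *Cacnb3* passed the filter on low values through WT alone. The log2 fold changes were −7.13 for *Ccl17* (SE 0.60, adjusted p = 0.00477), −4.52 for *Ccl22* (SE 0.77, adjusted p = 0.0244), −4.47 for *Ccr7* (SE 0.91, adjusted p = 0.0386), −3.63 for *Cacnb3* (SE 0.75, adjusted p = 0.0405) and −2.05 for *Cx3cl1* (SE 0.33, adjusted p = 0.0212). *Fscn1* changed by −4.43 (SE 1.01, adjusted p = 0.0502) and was called with the replicate number as a block (adjusted p = 0.0216). The median over the 6 members was −4.45, against −0.11 over all genes. *Ccl17* had the most negative change of all genes fitted on both days.

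The calls of day 3 rested on few libraries. Without WT replicate 1 or without DKI replicate 3 of that day, 1 member was called, and without WT replicate 2 or without DKI replicate 2 there were 2. On the recovered reads with voom, *Ccl17* and *Ccl22* were called and the highest adjusted p of the 6 members was 0.0928.

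**Figure D2:**
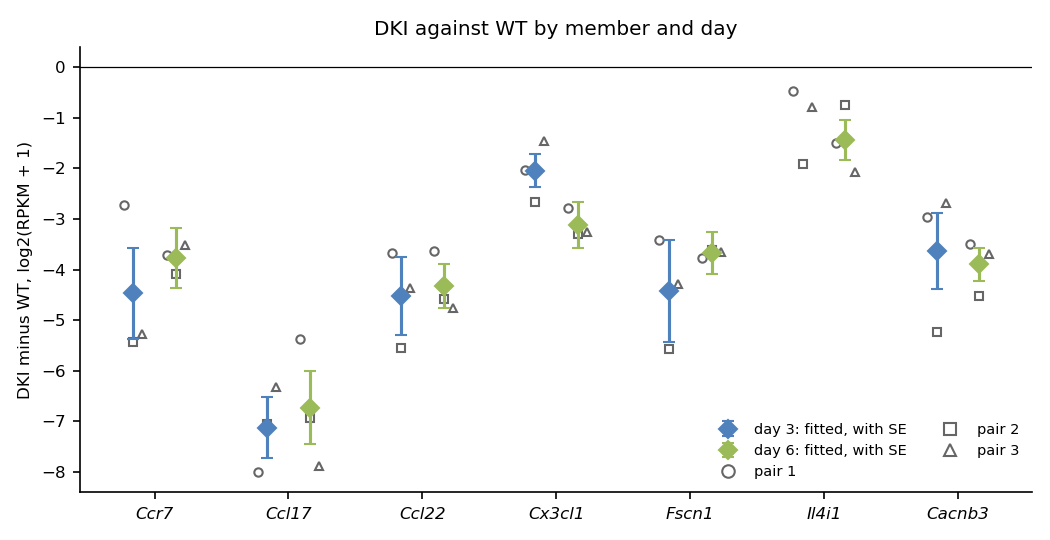
Difference of log2(RPKM + 1) between DKI and WT for each gene on days 3 and 6, as the fitted change with its SE (diamonds) and as the difference within each same-numbered pair (open markers). Every pair lies below 0 for every gene, *Ccl17* lies lowest, and *Il4i1* has no fitted value on day 3.

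By day 6 the members other than *Ccl17* were at higher mean levels in WT MDCs. *Ccr7* was at 456, 296 and 824 RPKM, *Fscn1* at 368, 173 and 377 RPKM, and *Cacnb3* at 86.6, 96.8 and 123 RPKM. *Ccl22* was at 1934, 1392 and 2924 RPKM and *Cx3cl1* at 28.7, 15.4 and 36.3 RPKM. *Il4i1* was at 2.25, 1.15 and 4.82 RPKM. *Ccl17* was at 3607, 1871 and 6080.01 RPKM, so that its mean of 3853 ± 2115 RPKM (SD, n = 3) was within the spread of day 3. In order of mean level in WT on day 6, *Ccl17* and *Ccl22* overlapped, *Ccr7* and *Fscn1* overlapped, and *Cacnb3*, *Cx3cl1* and *Il4i1* followed without overlap with each other.

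In DKI MDCs of day 6 the same genes remained lower than in WT. *Ccl17* was at 86.4, 14.2 and 24.7 RPKM, *Ccl22* at 154, 56.9 and 106.7 RPKM, and *Cx3cl1* at 3.29, 0.660 and 2.89 RPKM. *Ccr7* was at 33.9, 16.5 and 70.9 RPKM and *Fscn1* at 25.9, 13.2 and 29.1 RPKM. *Cacnb3* was at 6.77, 3.27 and 8.61 RPKM, and *Il4i1* at 0.146, 0.288 and 0.395 RPKM. *Ccl22* and not *Ccl17* had the highest mean of the 7 members in DKI (105.9 ± 48.6 against 41.8 ± 39.0 RPKM, SD, n = 3), although their values overlapped. Replicate 2 was the lowest DKI library for *Ccr7*, *Ccl17*, *Ccl22*, *Cx3cl1*, *Fscn1* and *Cacnb3*.

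The DKI mean on day 6 was between 1.08% (*Ccl17*) and 10.1% (*Il4i1*) of WT, with a median of 7.44%. No member overlapped between the genotypes, as was the case in this direction for 26.6% of the 9842 genes fitted. Of those genes, 4.82% were called lower and 2.72% higher in DKI. With median centring, which moved the median of all genes from −0.17 to −0.02, 285 genes were called lower and 323 higher in place of 474 and 268, and with quantile normalization 310 and 342. Of the 7 members, 6 were called lower, with log2 fold changes of −6.73 for *Ccl17* (SE 0.72, adjusted p = 0.00926), −4.33 for *Ccl22* (SE 0.44, adjusted p = 0.00818), −3.90 for *Cacnb3* (SE 0.32, adjusted p = 0.00637), −3.77 for *Ccr7* (SE 0.59, adjusted p = 0.0239), −3.68 for *Fscn1* (SE 0.41, adjusted p = 0.0107) and −3.12 for *Cx3cl1* (SE 0.46, adjusted p = 0.0205). *Il4i1*, which passed the filter through WT alone, changed by −1.43 (SE 0.39, adjusted p = 0.0718). The same 6 were called with the block and on the recovered reads with voom. Without WT replicate 1, WT replicate 3 or DKI replicate 3 of day 6, 4 members were called.

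Whether the rise to day 3 differed between the genotypes was tested as an interaction over the 12 libraries of days 0 and 3. Of 10212 genes fitted, 1.7% rose less or fell more in DKI. The 6 members fitted passed the filter through day 3 alone, *Cx3cl1* and *Cacnb3* through WT of that day. Of these, 5 were called in that direction, with differences of the log2 change of −7.29 for *Ccl17* (SE 0.81, adjusted p = 0.00142), −4.45 for *Ccl22* (SE 0.85, adjusted p = 0.0203), −4.40 for *Ccr7* (SE 1.004, adjusted p = 0.0438), −3.73 for *Cacnb3* (SE 0.84, adjusted p = 0.0418) and −2.02 for *Cx3cl1* (SE 0.39, adjusted p = 0.0203). *Fscn1* differed by −4.40 (SE 1.11, adjusted p = 0.0660). On the recovered reads with voom, none of the 6 was called (adjusted p from 0.301 to 0.559), and without single libraries between 1 and 6 were called, with 1 member left without WT replicate 2, DKI replicate 2 or DKI replicate 3 of day 0. The interaction used the same libraries as the comparisons above and adds no further samples.

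Between days 3 and 6 no difference of a member passed the test. All 7 members were higher on day 6 in WT replicates 1 and 3, whereas in WT replicate 2 *Ccl17*, *Ccl22*, *Fscn1* and *Il4i1* were lower on day 6, with ratios of 0.325, 0.5005 and 0.397 for the first, the second and the last. In WT, the day 6 level of *Ccr7* was 3.87, 1.29 and 13.6 times that of day 3 in the same-numbered libraries and that of *Cx3cl1* 4.86, 1.81 and 12.04 times, and for both every day 6 library was above every day 3 library, as for 6.09% of 9613 genes. *Fscn1* had ratios of 3.47, 0.637 and 14.1. In DKI, the ratios were 2.00, 3.78 and 118 for *Ccr7* and 2.88, 2.81 and 69.2 for *Fscn1*. The values of *Fscn1*, *Il4i1* and *Cacnb3* did not overlap between the days in DKI, as for 1.14% of 9540 genes. *Ccl17* went the other way in DKI replicates 2 and 3, with ratios of 0.337 and 0.364, and had a ratio of 6.90 in replicate 1.

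In limma, 0% of the 9613 genes in WT and 0% of the 9540 genes in DKI were called higher on day 6, and no member was called. At an unadjusted p under 0.05 there were 722 genes in WT (706 with voom) and 93 in DKI (88 with voom). Among the members these were *Cx3cl1* (log2 fold change 2.04, SE 0.41, unadjusted p = 0.00189) and *Ccr7* (2.02, SE 0.56, unadjusted p = 0.00945) in WT, and *Cacnb3*, *Fscn1*, *Ccr7* and *Ccl22* in DKI, whose adjusted p was 0.999 in limma and of which *Cacnb3* passed the filter through day 6 alone. With all 18 libraries in the fit, 1 member, *Cx3cl1*, was called higher on day 6 in WT. No difference of the genotype effect between days 3 and 6 passed for a member in the interaction, where 0% of 9985 genes were called lower in limma (89 genes in either direction at an unadjusted p under 0.05, 58 with voom). The members' differences there ran from −1.07 for *Cx3cl1* (SE 0.60) to 0.75 for *Fscn1* (SE 1.20).

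**Figure D3:**
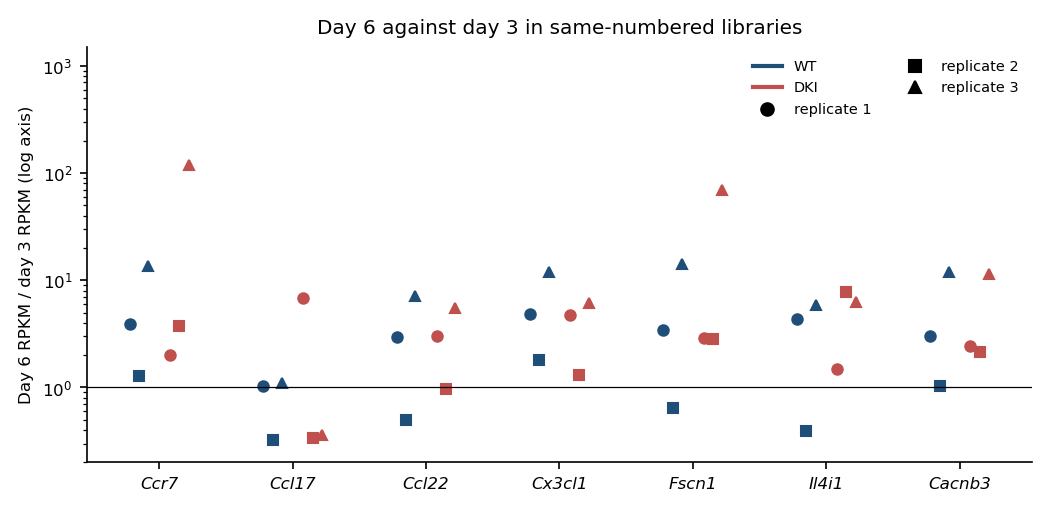
Ratio of the day 6 RPKM to the day 3 RPKM on a log axis for each gene and same-numbered library, with WT in blue, DKI in red and a marker shape for each replicate number. Most points lie above 1, *Ccl17* has points on both sides in both genotypes, and DKI replicate 3 lies highest for *Ccr7* (118) and *Fscn1* (69.2).

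*Ccl17* varied apart from the other members. After the group means were removed, the Pearson correlation of log2(RPKM + 1) over the 12 MDC libraries lay between 0.48 and 0.89 (median 0.73) for the 15 pairs of members without *Ccl17*, and between −0.22 and 0.49 (median 0.11) for the 6 pairs with it. *Ccr7* and *Fscn1* were the closest pair at 0.89, and *Ccr7* and *Ccl17* the farthest at −0.22. These values describe 12 libraries that share cultures, preparation and depth, and carry no test. Over all 18 libraries every pair had a correlation between 0.81 and 0.99, which follows the groups.

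The genes whose levels followed each member most closely over the 18 libraries were named by the Pearson correlation among 10417 genes. For *Ccr7* these were *Tnfrsf9* (0.99), *Npr1* (0.97) and *Sema7a* (0.97), for *Fscn1* *Serpinb6b* (0.99), *Tnfrsf9* (0.99) and *Gnb4* (0.98), and for *Cacnb3* *Sema7a* (0.99), *Arc* (0.98) and *Ikzf4* (0.98). *Cx3cl1* was followed by *Sema7a* (0.98), *Spsb1* (0.98) and *Npr1* (0.98), and *Il4i1* by *Cd70* (0.97), *Frzb* (0.97) and *Efna2* (0.97). *Ccl22* was followed by *Arpin* (0.99), *Rnf180* (0.98) and *Gnb4* (0.98), and *Ccl17* by *Vdr* (0.98), the vitamin D receptor, *Socs2* (0.98), a feedback inhibitor of cytokine signalling, and *Synpo* (0.98). *Sema7a*, *Tnfrsf9*, *Npr1* and *Gnb4* stood beside more than 1 member, and none of the 3 genes beside *Ccl17* did.

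Other genes around the 3 chemokine genes on chromosome 8 were compared between the genotypes as well. Among the genes that reached within 500 kb of the interval from *Ccl22* to *Ccl17*, 14 others could be fitted on day 3 and 15 on day 6. Their median log2 fold change was −0.31 on day 3 and −0.37 on day 6, and they ran from −1.94 to 0.74 and from −1.89 to 0.83. On day 3, 2 of the 14 were called lower (4.21% of all genes), *Ccdc102a* (−1.94, SE 0.18, adjusted p = 0.00663) and *Herpud1* (−1.22, SE 0.27, adjusted p = 0.0484, 0.0701 with the block). On day 6, *Ccdc102a* (−1.89, SE 0.38, adjusted p = 0.0373, 0.0523 with the block) and *Arl2bp* (−1.18, SE 0.23, adjusted p = 0.0362) were called lower. *Ciapin1*, the gene next to *Ccl17*, changed by −0.64 (SE 0.21, adjusted p = 0.120) and −0.33 (SE 0.15, adjusted p = 0.201). Around *Stat5a* on chromosome 11, 5 of 129 genes (3.88%) within 5 Mb were called lower on day 3 and 10 of 130 (7.69%) on day 6, *Ccr7* included, against 4.21% and 4.82% of all genes fitted. Both neighbourhoods were looked at after values were known.

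**Figure D4:**
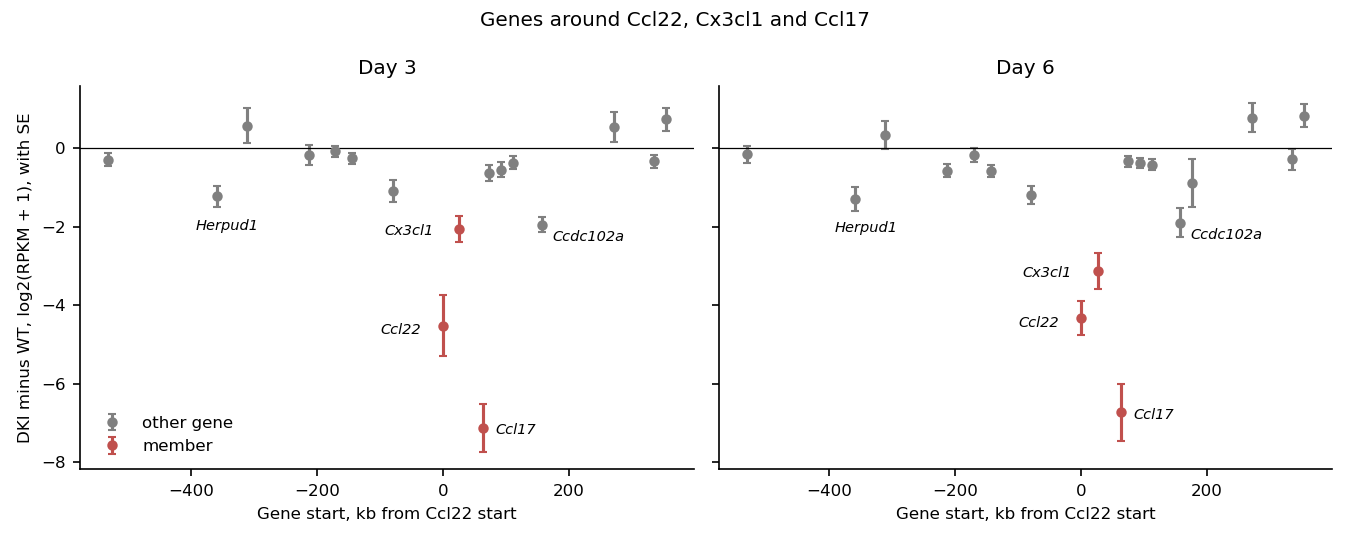
Fitted difference of log2(RPKM + 1) between DKI and WT, with its SE, on days 3 and 6 against the distance of each gene's start from that of *Ccl22* in kb, with the 3 members in red and other genes in grey. The members lie between −2.05 and −7.13 on day 3, and the other genes between −1.94 and 0.74.

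A list of 15 genes held ligands, receptors, sheddases and paralogs of the members and *Nup62*, a gene beside *Il4i1*, and 5 of them could be fitted on each day. *Ccl19* and *Ccl21a*, the ligands of CCR7, were listed at 0 in all 18 libraries, and *Ccl21a* has near-identical copies whose reads may not have been counted. *Ccr4*, the receptor of CCL17 and CCL22, stayed below the filter, at day 3 means of 0.726 RPKM for WT and 0.147 RPKM for DKI cells (209 and 43 reads over 3 libraries). *Cx3cr1*, the receptor of fractalkine and a monocyte gene, fell from 43.7 to 0.324 RPKM in WT (log2 fold change −4.93, SE 0.43, adjusted p = 0.000301) and from 40.6 to 0.102 RPKM in DKI (−5.08, SE 0.42, adjusted p = 0.000922) by day 3. Receptor and ligand of this pair therefore moved in opposite directions in WT cells. In DKI cells the mean of *Cx3cl1* also went up, from 0.127 to 0.553 RPKM, but below the filter.

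Neither sheddase that cuts fractalkine from the membrane was called lower in DKI. *Adam17* was higher in DKI on day 3 (95.3 ± 13.6 against 51.1 ± 1.22 RPKM, SD, n = 3, log2 fold change 0.88, SE 0.16, adjusted p = 0.0277, 0.0579 with the block) and changed by 0.47 on day 6 (SE 0.27, adjusted p = 0.298). *Adam10* changed by 0.79 (SE 0.18, adjusted p = 0.0518) and 0.89 (SE 0.21, adjusted p = 0.0537). *Ccrl2*, an atypical chemokine receptor, changed by 1.56 (SE 0.69, adjusted p = 0.212) and 1.46 (SE 0.40, adjusted p = 0.0747, 0.0452 with the block). Among the 5 listed genes fitted on each day, 1 was called higher and 0 lower on day 3, and none was called on day 6, where 3.21% and 2.72% of all genes were called higher. From day 0 to day 3, 4 of 6 fell and 1 rose in WT (22.8% and 20.3% of all genes), and 2 of 5 fell in DKI (21.1%).

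Paralogs of *Cacnb3* and *Fscn1* were low. *Cacnb1* changed by −0.66 (SE 0.21, adjusted p = 0.113) on day 3 and −0.97 (SE 0.22, adjusted p = 0.0505) on day 6, and rose to day 3 in WT (1.13, SE 0.23, adjusted p = 0.00640). *Cacnb2* and *Cacnb4* were below the filter, and *Cacnb4* had day 3 means of 0.166 RPKM (WT) and 1.59 RPKM (DKI). *Fscn2*, *Fscn3*, *Ackr2* and *Ackr4* were at group means of at most 0.352 RPKM. *Nup62*, which overlaps *Il4i1* in the GENCODE M21 annotation but not in RefSeq, changed by 0.02 (SE 0.14) on day 3 and −0.03 (SE 0.18) on day 6.

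A list of 50 other genes of mature migratory dendritic cells, drawn from general knowledge with earlier results of these data known, was read for the same comparisons. On day 3, 46 were fitted, of which 11 were called lower in DKI, 0 higher and 35 not called, at a median log2 fold change of −0.92, where 4.21% of all genes were called lower. On day 6, 47 were fitted, of which 19 were called lower, 0 higher and 28 not called, at a median of −1.55, against −0.17 and 4.82% called lower over all genes. On day 3 *Nudt17*, *Adcy6*, *Stat4*, *Apol7c* and *Ankrd33b* passed the filter through WT alone and *Zmynd15* through DKI alone. On day 6 *Nudt17* and *Bcl2l14* passed it through WT alone. On day 3 the 11 became 4 without WT replicate 1, 5 without WT replicate 2, 7 with no filter and 19 with all 18 libraries, and up to 2 genes were called higher (2 with all 18 libraries and 2 without DKI replicate 1). On day 6 the 19 became 6 without WT replicate 1, 7 without WT replicate 3 or without DKI replicate 3, 12 without DKI replicate 1 and 9 with no filter. From day 0 to day 3, 23 of 45 rose and 4 fell in WT, where 20.3% of all genes rose and 22.8% fell, and 14 of 42 rose and 4 fell in DKI, where 13.1% rose and 21.1% fell. Leaving out any library of day 0 lowered the 14 to 8 or 9. Fitted genes of the list with a mean below 2 RPKM on day 0, such as *Socs2*, *Pdcd1lg2* and *Tnfrsf9*, passed the filter through day 3 alone. The filter thus favoured rises among them in both genotypes.

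The largest called decreases of the list on day 3 were in *Tnfrsf9* (−4.70, SE 0.79, adjusted p = 0.0239), which codes for the co-stimulatory receptor 4-1BB, *Socs2* (−4.14, SE 0.22, adjusted p = 0.00239), the retinaldehyde dehydrogenase *Aldh1a2* (−3.50, SE 0.56, adjusted p = 0.0211, 0.0634 with the block), *Nudt17* (−3.39, SE 0.51, adjusted p = 0.0185) and the maturation marker *Cd83* (−3.25, SE 0.44, adjusted p = 0.0135). *Nudt17* passed the filter through WT alone on both days. On day 6 the largest were in *Socs2* (−4.30, SE 0.43, adjusted p = 0.00803), *Tnfrsf9* (−4.23, SE 0.52, adjusted p = 0.0136), the adenylyl cyclase *Adcy6* (−3.29, SE 0.31, adjusted p = 0.00803), *Nudt17* (−3.27, SE 0.36, adjusted p = 0.00984) and *Stat4* (−2.97, SE 0.62, adjusted p = 0.0410). *Socs2* had means of 0.0892 RPKM on day 0 and 102 ± 19.7 RPKM (SD, n = 3) on day 3 in WT, and of 0.153 and 4.85 ± 1.25 RPKM in DKI. *Cd83* differed from the members in that untreated monocytes already expressed it (WT 94.0 ± 30.6 RPKM, DKI 83.3 ± 38.6 RPKM, SD, n = 3). In DKI MDCs of day 3 it was at 6.19 ± 2.06 RPKM, and in WT at 74.2 ± 48.0 RPKM.

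**Figure D5:**
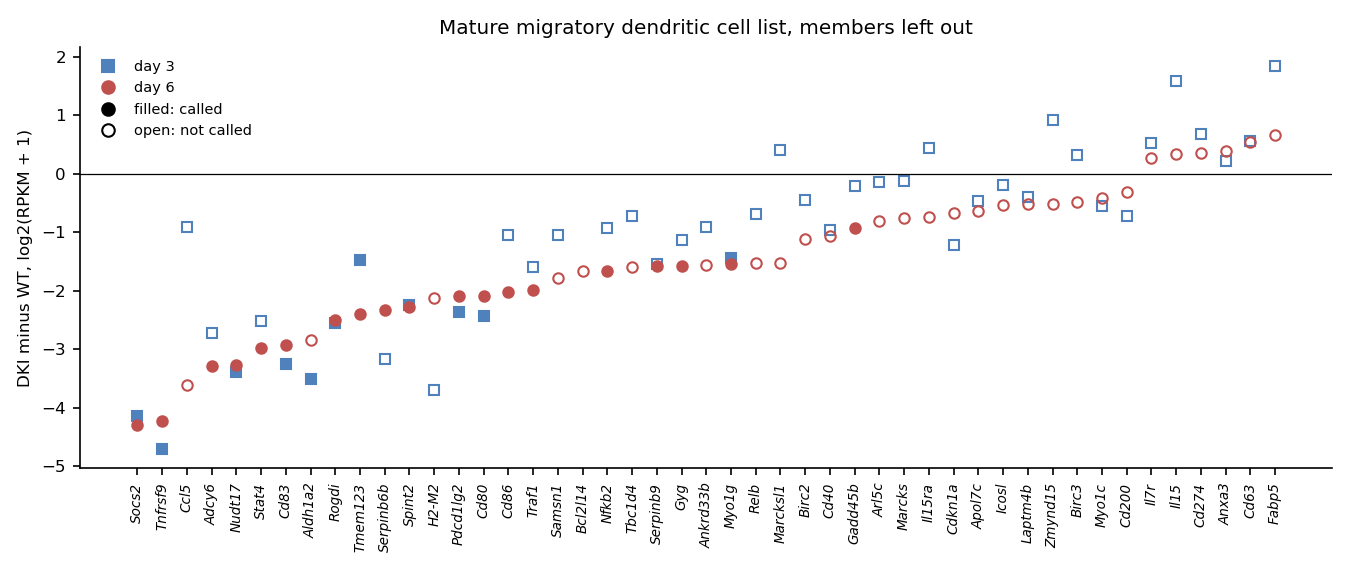
Fitted difference of log2(RPKM + 1) between DKI and WT for the genes of the mature migratory dendritic cell list, on day 3 (squares) and day 6 (circles), in the order of day 6, with called genes filled. All 11 genes called on the earlier day and all 19 of the later day lie below 0.

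Markers of other cell types moved with the genotype in the same libraries. The 6 monocyte markers summed to between 1514 and 3807 RPKM in WT and between 8926 and 20896 RPKM in DKI on day 3, and to between 2823 and 4154 RPKM and between 10038 and 14107 RPKM on day 6. *Lyz2* was the highest of the 6 by mean, with day 3 means of 1894 RPKM in WT against 13030 RPKM in DKI. *Ccr2*, also of this list, overlapped, at 160 ± 69.3 against 178 ± 192 RPKM on day 3 and 122 ± 42.7 against 99.9 ± 67.1 RPKM on day 6 (SD, n = 3). *Fcgr1* overlapped on both days and *Ly6c2* and *Csf1r* on day 6, so that *Lyz2* and *Itgam* were the markers above every WT library on both days. The 4 macrophage markers summed to between 178 and 535 RPKM in WT and between 913 and 2687 RPKM in DKI on day 3. The dendritic cell lineage markers *Flt3*, *Zbtb46* and *Itgax* summed to between 427 and 728 RPKM in WT and between 32.3 and 326 RPKM in DKI on day 3. On day 6 the sums of the macrophage markers overlapped, from 256 to 1259 RPKM in WT and from 913 to 3287 RPKM in DKI, through *C1qa*, whereas *Adgre1*, *Mertk* and *Mrc1* were each higher in every DKI library. The sums of the dendritic cell markers did not overlap on day 6, from 482 to 569 RPKM and from 133 to 384 RPKM. They were mostly *Itgax*, and *Flt3* overlapped on day 3, from 0.457 to 1.87 RPKM in WT and from 0.588 to 1.15 RPKM in DKI. Their part in the levels of the 7 genes was not tested.

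Markers of dendritic cells that do not come from monocytes were low. The plasmacytoid dendritic cell markers *Siglech* and *Ccr9* summed to at most 0.560 RPKM, and the cDC1 markers *Xcr1* and *Clec9a* to at most 3.74 RPKM, in the MDC libraries. Nearly all of the latter was *Clec9a*, whose mean reached 2.27 ± 1.74 RPKM (SD, n = 3) in DKI on day 6. In WT MDCs the 4 B cell markers summed to at most 0.736 RPKM and the 3 T cell markers to at most 2.92 RPKM. In DKI MDCs they summed to at most 7.10 and 9.73 RPKM. NK cell markers summed to between 3.75 and 19.1 RPKM in WT and between 0.615 and 4.49 RPKM in DKI MDCs, most of it *Klrk1*, and the highest *Ncr1* level in any MDC library was 0.296 RPKM. The 6 neutrophil markers summed to between 3.70 and 446 RPKM in WT and between 36.3 and 442 RPKM in DKI on day 3, and overlapped on day 6. Of these, *Retnlg* was higher in every DKI library on both days and *Ly6g* on day 3 only. *Camp*, *Ngp*, *Elane* and *Mpo* overlapped on both days. The erythroid markers found in the table summed to at most 0.0181 RPKM in MDCs.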

How the data were processed

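RNA of 18 mouse libraries was sequenced from 3 independent experiments, and groups and replicate numbers were read from the sample titles. According to the methods and the submitters' processing notes, single-end reads were mapped to mm10 by Subread and assigned to RefSeq genes by featureCounts, and the authors deposited RPKM values. The versions, the strandedness and the treatment of reads that match several genes are not given in the sources used here, so overlapping genes and near copies are uncertain. The members and lists were chosen with earlier results of these data known.

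Read totals were recovered from the steps of low RPKM values in 699 single-exon genes. All 255140 values above 0 came out as whole reads within 0.02, and libraries held 29.5 M to 43.2 M reads. Of the gene identifiers, 20082 matched RefSeq and 216 did not. All 18 columns were used.

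Genes with a mean RPKM above 2 in a compared group were fitted as log2(RPKM + 1) with limma 3.58.1 in R 4.3.3 (eBayes with a trend), two-sided, on the libraries compared, without a block, and called where the fold change exceeded 1.5 and the p adjusted by Benjamini-Hochberg was below 0.05. These limits follow the study's methods in part, whose edgeR test and limit on log2 CPM were not used here. The steps were tested on simulated data. Alternatives were a replicate block, a pseudocount of 0.1, no filter, all 18 libraries, median centring, quantile normalization, no trend, leaving out each library and, added after the data were seen, limma voom on the recovered reads.

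The deviations of WT and DKI libraries with the same number were positively correlated on all days (0.16 to 0.87), as were those of days 3 and 6 within a genotype (0.13 to 0.73). These numbers were therefore read as pairs. The correlations of days 0 and 3 lay on both sides of 0 (−0.20 to 0.18), with the highest of them inside the ranges above. Named genes are all members, all partners, up to 5 called genes of the mature list per day with the largest change in the same direction in all pairs, the 3 genes most correlated with each member, and *Stat5a* and *Stat5b*. *Stat5b* changed by −0.53 on day 3 and −0.68 on day 6 (limma adjusted p = 0.143 and 0.0767). Neighbouring genes were chosen after values were seen. Intervals are SD over 3 libraries per group, and figures were drawn with Python 3.11.15 and matplotlib 3.10.9.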

Additional observations from a re-analysis of the deposited data

Results flagged for a closer look

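The change from day 0 to day 3 differed between the genotypes for 5 genes in the interaction test of limma. The change in DKI minus that in WT was −7.29 for *Ccl17*, −4.45 for *Ccl22*, −4.40 for *Ccr7*, −3.73 for *Cacnb3* and −2.02 for *Cx3cl1* on the log2(RPKM + 1) scale, and in each case all 3 DKI libraries of day 3 were below all 3 WT libraries, as for 22.9% of the 9740 genes fitted on that day. Of all genes, 1.7% were called in this direction in the interaction. On the recovered reads with voom the interaction of none of the 5 passed. No group had more than 3 libraries, so single libraries were not tested as outliers.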

How the results depend on the processing

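Each member fitted between the genotypes on days 3 and 6, or from day 0 to day 3, kept its direction in the alternatives listed above in which it was fitted. *Il4i1* was below the filter between the genotypes on day 3 and from day 0 to day 3, and *Cx3cl1* and *Cacnb3* were below it from day 0 to day 3 in DKI. On day 3, where 5 members were called lower in DKI, 2 were called with no filter and 2 on the recovered reads with voom, and between 1 and 4 when a library was left out. On day 6 the count was between 4 and 7 in all alternatives. From day 0 to day 3 in DKI, where 2 were called higher, voom called 1, and between 2 and 5 were called when a library was left out. For the difference of the day 0 to day 3 change, where 5 members were called, 3 were called with no filter and 0 with voom. Between 1 and 6 members were called when a library was left out. From day 3 to day 6 in WT, 1 member was called with all 18 libraries. The replicate block called 6 members lower on day 3, 6 on day 6 and 6 in the difference of the day 0 to day 3 change. In that difference the block paired WT with DKI libraries within each day, and the genes called lower went from 174 to 570. The block changed no other call of a member. Fewer samples or more genes tested entered the fits without a library or a filter. For voom the cause was not tested.

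Signs of members changed in comparisons of days 3 and 6 with each other. *Ccl17* in DKI ran from −0.79 to 0.47 (log2 fold change) when a library was left out. For the difference of the genotype effect between the days the values ran from −0.17 to 1.57 for *Ccr7*, from −0.32 to 0.94 for *Ccl17*, from −0.62 to 0.76 for *Ccl22*, from −0.055 to 1.62 for *Fscn1* and from −1.06 to 0.48 for *Cacnb3*. With a pseudocount of 0.1 it was 0.10 for *Il4i1* and 0.16 for *Cacnb3*, and with voom 1.02 and 0.12. Of 759 values of single members under alternatives, 657 kept their side of the threshold, 69 lost and 12 gained a call and 21 changed sign. Over all genes, the 410 called lower on day 3 became 205 with no filter and 795 with all 18 libraries, and the 474 of day 6 became 127 and 1037, 285 with median centring, 310 with quantile normalization and 292 with voom. The 174 genes that rose less in DKI became 36 with voom. Leaving out a library brought the genes called lower on day 3 to between 26.1% (without WT replicate 1) and 94.9% of their number, and those of day 6 to between 13.3% (without DKI replicate 3) and 138% (without DKI replicate 2).

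On day 0 the members had few reads and were fitted with no filter or with all 18 libraries only, and 0 were called.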
